A study of Homo sapiens with 18 samples.

Results

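Chromatin accessibility was examined at 10 genes for transporters of platinum drugs, copper and organic compounds, namely SLC31A1, SLC31A2, SLC22A2, SLC22A3, ATP7B, ABCC1, ABCC2, ABCC3, ABCB1 and ABCG2. The genes were chosen for their function, with earlier results of these data known. Their windows were those of the deposited ATAC-seq table that overlapped the gene's GENCODE span on GRCh37 (hg19), extended by 10 kb each side. There were 46 such windows, of 89428 in all. Of these, 11 lay over the gene's own promoter (from 1 kb before to 100 bp after the start of any protein-coding transcript), 2 lay over the promoter of RUNDC3B inside the span of ABCB1, and 33 were distal. ATAC-seq marks open DNA by the insertions of the Tn5 transposase, and a level is given in FPKM, the reads of a 1001 bp window per kilobase, divided by the depth of the library. Untreated cells of 6 established human ovarian cancer lines were measured, in 3 libraries each and 18 in all, and each platinum-sensitive line has a resistant partner, which gives 3 pairs.

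A2780 is the sensitive line of the first pair, labelled as endometrial or ovarian cancer, and CP70 is its derivative selected for resistance in culture. The PEA lines form a high-grade serous pair grown out of ascitic fluid of 1 donor, PEA1 (sensitive) predating platinum treatment and PEA2 (resistant) coming from the recurrence. The PEO lines are a high-grade serous pair of another donor, in which PEO1 is the sensitive line and PEO4 the later, resistant one. According to the study, both PEO lines were isolated after platinum chemotherapy, PEO1 before and PEO4 after resistance arose in the clinic. All lines were grown in RPMI-1640 with glutamine and fetal bovine serum, and no drug treatment is given for any of them. Each line is 1 culture history, so a pair compares a line with its partner and not a treatment, and nothing states that the 3 libraries of a line came from separate cultures. The p-values of a pair therefore measure the spread between these libraries, which may be technical.

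Platinum drugs are carried into and out of cells partly by proteins that normally handle copper, organic cations and conjugated drugs. SLC31A1 (CTR1) is the high-affinity copper importer that also takes up cisplatin, and SLC31A2 (CTR2) is its relative in endosomes and lysosomes. SLC22A2 (OCT2) and SLC22A3 (OCT3) import organic cations. ATP7B is a copper-pumping ATPase of the trans-Golgi network that is linked to platinum sequestration and export. ABCC1 (MRP1), ABCC2 (MRP2) and ABCC3 (MRP3) are ATP-driven pumps for glutathione, glucuronide and sulfate conjugates, and ABCB1 (P-glycoprotein) and ABCG2 (BCRP) are pumps for many hydrophobic and amphipathic drugs. Accessibility is a property of the DNA of a gene and is neither its transcript nor its protein level.

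The starts of these genes are of different kinds, and 4 of them are shown first. Starts whose preceding bases overlap an annotated untranslated exon were left out. The start window, which holds the start of the canonical transcript, was in the table for 8 of the 10 genes, and the start windows of ABCC2 and SLC22A2 were not analysed here. The 200 bases before the start are given for SLC31A1 and SLC22A3, whose start windows were in the table, and for ABCC2 and SLC22A2. They were read from GRCh37 and are written 5′ to 3′ on the strand of the gene, with matches to the motifs searched on both strands in capitals.

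SLC31A1, chr9:115983624-115983823, plus strand: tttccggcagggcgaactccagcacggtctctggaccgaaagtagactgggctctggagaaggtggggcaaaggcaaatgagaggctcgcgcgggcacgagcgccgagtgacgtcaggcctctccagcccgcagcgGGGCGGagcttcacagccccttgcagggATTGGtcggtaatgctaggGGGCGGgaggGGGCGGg
SLC22A3, chr6:160769210-160769409, plus strand: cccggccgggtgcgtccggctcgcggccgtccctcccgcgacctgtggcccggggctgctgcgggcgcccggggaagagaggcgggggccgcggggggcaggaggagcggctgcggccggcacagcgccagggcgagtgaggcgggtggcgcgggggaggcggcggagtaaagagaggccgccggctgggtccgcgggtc
ABCC2, chr10:101542197-101542396, plus strand: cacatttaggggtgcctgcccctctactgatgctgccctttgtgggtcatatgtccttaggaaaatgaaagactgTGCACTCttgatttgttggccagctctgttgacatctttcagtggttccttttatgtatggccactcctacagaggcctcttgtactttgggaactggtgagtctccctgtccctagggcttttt
SLC22A2, chr6:160679854-160680053, minus strand: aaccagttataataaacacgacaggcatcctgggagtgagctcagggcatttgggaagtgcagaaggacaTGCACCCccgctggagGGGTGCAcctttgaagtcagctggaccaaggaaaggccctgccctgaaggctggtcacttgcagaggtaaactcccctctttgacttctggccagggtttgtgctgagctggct

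The capitals mark 3 GC boxes (GGGCGG) and a CCAAT box (CCAAT, here on the opposite strand) in SLC31A1, and metal response element cores (TGCACNC) in ABCC2 and SLC22A2. The stretch of SLC31A1 held 17 CpG dinucleotides and was 67% G or C, and that of SLC22A3 held 30 and was 82% G or C. The stretch of ABCC2 held 0 CpG dinucleotides and that of SLC22A2 held 2. A GC box was found before 4 of the 10 genes (SLC31A1, ATP7B, ABCC1 and ABCC3), against 56.9% of 19440 canonical starts of protein-coding genes. The TGCACNC core was found before 2 of the 10 genes, against 8.1% of all starts. The second metal response element core searched (TGCGCNC) was found before 2 (ATP7B and ABCG2), against 20.6%, and the CCAAT box before 2 (SLC31A1 and ABCB1), against 30.5%. An AP-1 site (TGANTCA) lay before ATP7B, against 3.75% of all starts. An antioxidant response element core (TGACNNNGC, found at 9.62% of all starts) and a TATA box (TATAAA, 7.72%) were found before 0 of the 10.

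Stretches of 5 intron windows on which values below turn are shown next, around an AP-1 match in capitals. AP-1 is the family of FOS and JUN dimers that binds TGANTCA in many distal elements. A match was present in 21 of the 33 distal windows (63.6%), against 46.8% of the 64052 windows of the table that overlap no protein-coding promoter, and in 7 of the 11 own promoter windows, against 17% of promoter windows. A match is a run of letters and not a bound site, and an AP-1 match that is followed by GC is also a TGACNNNGC match when its middle base is C.

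ABCC3, intron 1, chr17:48716369-48716495, plus strand: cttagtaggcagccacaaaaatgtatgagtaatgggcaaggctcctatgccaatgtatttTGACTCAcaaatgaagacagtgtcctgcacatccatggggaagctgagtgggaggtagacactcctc
ABCC1, intron 5, +72.4 kb, chr16:16116007-16116133, plus strand: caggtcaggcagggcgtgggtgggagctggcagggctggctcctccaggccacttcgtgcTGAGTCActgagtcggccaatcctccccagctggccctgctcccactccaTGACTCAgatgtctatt
ABCC1, intron 5, +78.7 kb, chr16:16122228-16122354, plus strand: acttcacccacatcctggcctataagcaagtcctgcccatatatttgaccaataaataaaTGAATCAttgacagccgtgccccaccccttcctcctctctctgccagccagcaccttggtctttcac
ABCC2, intron 24, chr10:101594313-101594439, plus strand: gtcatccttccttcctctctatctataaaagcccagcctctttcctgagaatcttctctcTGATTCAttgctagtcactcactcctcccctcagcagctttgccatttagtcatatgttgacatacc
SLC22A2, intron 2, chr6:160675913-160676039, plus strand: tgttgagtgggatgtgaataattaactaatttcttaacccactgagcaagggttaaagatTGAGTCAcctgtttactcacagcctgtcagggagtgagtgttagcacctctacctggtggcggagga

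Depth and background of the libraries bear on every value. The libraries held 8963079 to 60435027 reads, and the share of reads in windows of the table ranged from 8.38% in an A2780 library to 40.8% in a PEO1 library. The median window of a library lay between 0.645 and 0.838 FPKM in A2780 and CP70, between 1.05 and 1.87 in the PEA lines and between 2.24 and 2.93 in the PEO lines. A level in FPKM therefore tended to be low in A2780, the lowest line at 39.5% of all windows, and high in PEO1, the highest at 47.0%. The part of depth and background in a difference at the transporter genes cannot be told apart from that of the gene itself on this scale. The median log2 fold change of all windows tested was 0.59 for CP70 against A2780, 0.31 for PEA2 against PEA1 and -0.30 for PEO4 against PEO1, and changes of the transporter windows are read against these values. Reads carry no molecular identifiers, so that read numbers speak for counting error only. The table lists windows with over 2 FPKM in at least 2 libraries. A window can be listed through 1 high line, and its change in that line's pair is then not independent of the listing.

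Across the 6 lines, PEO1 had the highest mean level at 29 of the 46 transporter windows (63.0%), against 47.0% of all windows. PEA2 was highest at 8 windows (6 in ABCC1 and 2 in ABCG2), PEO4 at 6, PEA1 at 2 (both in ABCC3), CP70 at 1 (the start of SLC31A2) and A2780 at 0. For PEA2, PEO4, PEA1 and CP70 these were 17.4%, 13.0%, 4.35% and 2.17% of the 46. The shares of all windows were 16.4%, 26.8%, 5.30% and 4.17%, and 0.359% for A2780. A2780 was lowest at 22 windows (47.8%), beside 39.5% of all windows. When each line was taken relative to its own median window, the highest line was PEA2 at 12 windows, PEA1 at 11, PEO1 at 10, CP70 at 9, PEO4 at 3 and A2780 at 1, beside 16.6%, 12.3%, 21.5%, 21.9%, 20.8% and 6.96% of all windows. The distal windows spread more over the lines than the promoter windows. With each line's median window taken off, the SD of the 6 lines' mean log2 levels was 0.60 at the median own promoter window and 0.78 at the median distal window, beside 0.66 for all promoter windows and 0.84 for the other windows of the table.

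Resistant and sensitive lines were compared within each pair by limma on log2(FPKM + 0.1), over all windows with a mean above 1 FPKM in the pair. Changes are given below as log2 fold changes on that scale, resistant less sensitive line. In CP70 against A2780, the pair selected in culture, 11 of the 46 windows could be tested and 35 were at or below that mean. Accessibility rose at 3 of them, namely both promoter windows of ABCC1 and 1 window over the RUNDC3B promoter, beside 47.5% of all windows tested. It fell at 0 windows, beside 2.29% of all windows, and edgeR on the reads also called 0 lower. At an unadjusted p under 0.05, limma gave 1 window lower, at ATP7B. By the stricter rule of the study (a log2 fold change beyond 2 and adjusted p under 0.001) limma called 0 windows, beside 0.797%. The median change of the 11 windows was 0.52, below the 0.59 of all windows. The 3 calls were 27.3% of those tested, below the share of all windows. With each library centred on its median 0 windows were higher and 2, both at ATP7B, were lower. The shares of all windows called after centring are not given here, so centred counts in the 3 pairs are not set against them. Without A2780 replicate 3, 1 window was higher, and without CP70 replicate 1, 2 windows were lower.

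In PEA2 against PEA1, 37 windows were tested. Accessibility rose at 19, beside 43% of all windows, fell at 10, beside 21.4%, and did not pass at 8. All 10 tested windows of ABCC1 rose, though only 5 of them by more than the median of their 5 Mb bin of the chromosome, and so did 2 each of ABCC2, ABCG2, SLC22A2 and the RUNDC3B promoter and 1 of SLC22A3. All 9 windows of ABCC3 fell, though only 3 of them by more than their bin, and so did the start window of SLC31A1. The stricter rule was passed by 5 windows, beside 12.7%, of which 4 were higher. Promoter and distal windows differed in the whole table, where 20.3% of promoter windows and 55.3% of the others were higher, and the transporter genes had 2 of 10 own promoter windows and 15 of 25 distal windows higher. With each library centred on its median the split was 14 higher and 15 lower, without a centred share of all windows to set beside it.

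In PEO4 against PEO1, 41 windows were tested. Accessibility fell at 22, beside 45.8% of all windows, rose at 3, beside 21.9%, and did not pass at 16. The windows that fell were 7 of ABCC3, 5 of SLC22A2, 3 of ABCG2, 2 each of ABCC1 and ABCC2, the start windows of ABCB1 and SLC22A3 and 1 window over the RUNDC3B promoter. The 3 that rose were all in ABCC1. The stricter rule was passed by 7 windows, beside 8.49%, and 1 of these was higher. Among distal windows 17 of 28 fell, where 52% of the other windows of the table fell. With each library centred on its median the split was 9 higher and 15 lower, again without a centred share of all windows. Leaving out 1 library gave 18 to 21 windows lower, and 0 windows higher without PEO4 replicate 1 or 2 and 1 without PEO4 replicate 3 or PEO1 replicate 1 or 2. Without any 1 of the PEO4 libraries the ABCC1 window at +124.6 kb had a mean of 0.878 to 0.992 FPKM in the pair and was not tested.

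**Figure D1:**
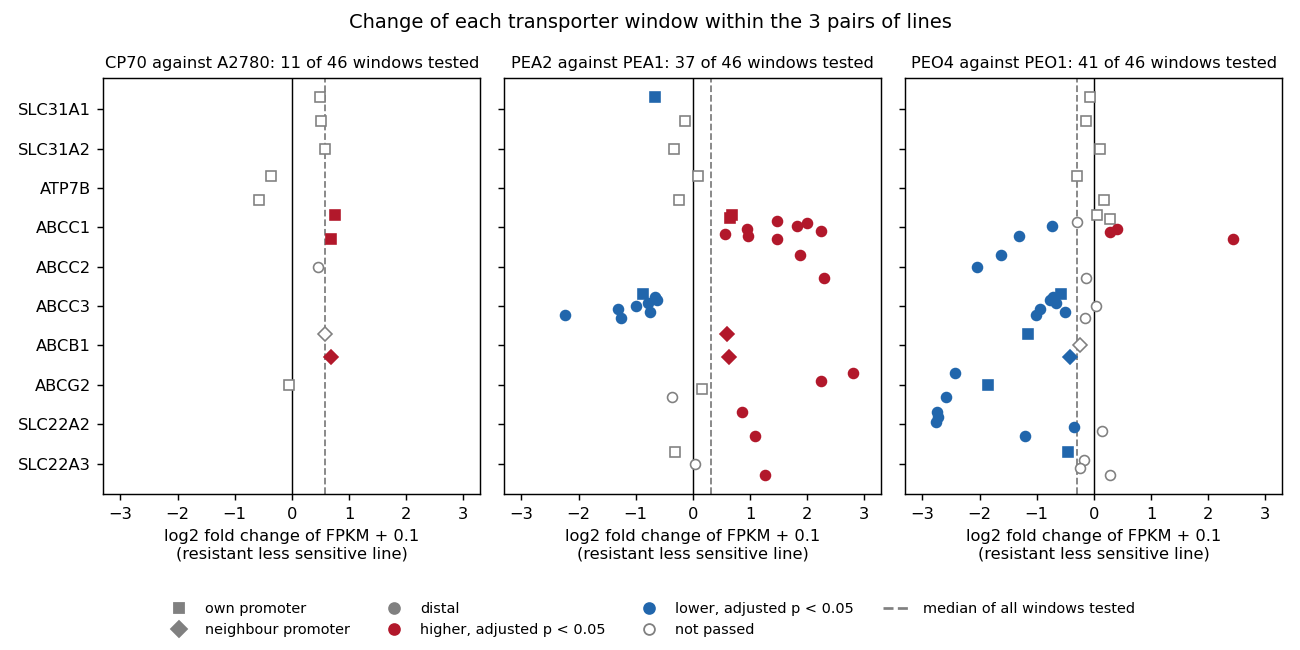
Log2 fold change of FPKM + 0.1, resistant less sensitive line, of every transporter window tested, 1 row of points per gene and 1 panel per pair. Filled points passed an adjusted p of 0.05 by limma, the dashed line is the median of all windows tested, and the 9 ABCC3 windows lie left of zero in the PEA pair while the 10 ABCC1 windows lie right of it.

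Of the 10 windows tested in all 3 pairs, 0 rose in each and 0 fell in each. The window over the RUNDC3B promoter at chr7:87257700-87258700 was the only one of the 10 to pass in each, and it was higher in CP70 and PEA2 and lower in PEO4 (0.25 above its bin there). Over the 3 pairs, with the mean of each line as 1 value and the pair as a block, limma called 0 of 36 windows different between resistant and sensitive lines, as it did 0% of all windows, and 0 of the 36 had an unadjusted p under 0.05. The same fit on the 18 libraries, which are not independent measures of platinum response, called 8 of the 36, beside 10.6% of all windows.

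The changes of the PEA and PEO pairs were compared directly by the interaction in limma, over the 12 libraries. The change differed at 27 of 42 transporter windows tested, beside 68.1% of all windows, and was higher in the PEA pair at 21 and lower at 6. Of the 42, 32 were tested in both pairs, and 18 of these differed, 13 higher in the PEA pair and 5 lower, beside 68.3% of all windows tested in both. The other 10 were at or below a mean of 1 FPKM in 1 pair, so that their difference rests on the level in the other. With each library centred on its median, 30 of the 42 differed, 15 higher and 15 lower, and the centred share of all windows is not given here. The largest difference was at intron 24 of ABCC2, where the log2 fold change of the PEA pair exceeded that of the PEO pair by 4.34 (SE 0.37, adjusted p = 7.59e-14). Windows that rose in PEA2 and fell in PEO4 numbered 5 of the 32 (15.6%), beside 23.7% of all windows tested in both. Of the 5, 2 lay in ABCC2 and 1 in ABCC1, and those of SLC22A2 and the RUNDC3B promoter did not fall below their bin in PEO4. The 3 windows that rose in both, beside 3.87% of all windows, were in ABCC1, and 1 of them rose above its bin in PEA2. The 7 that fell in both, beside 4.89%, were in ABCC3, and 2 of them fell below their bin in PEA2. The PEA and PEO comparisons share no library.

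Of the importers, SLC31A1 had the highest start window (ENSG00000136868, chr9:115983000-115984000), which covers the 5′ end of the gene and also the promoter of the divergent gene FKBP15, so that the level cannot be assigned to either. It stood at 3.52, 4.42 and 3.06 FPKM in A2780, 6.74, 4.97 and 4.06 FPKM in CP70 and 3.62, 4.14 and 3.21 FPKM in PEA1. It stood at 2.64, 2.02 and 2.17 FPKM in PEA2, 8.8, 8.03 and 7.8 FPKM in PEO1 and 8.6, 8.4 and 6.53 FPKM in PEO4. The PEO lines were high and PEA2 was the lowest line, the only one whose libraries did not overlap those of its neighbour in the order. In PEA2 the log2 fold change was -0.66 (SE 0.23, adjusted p = 0.00721), and it was -1.03 after median centring and -0.65 with its 5 Mb bin median taken off. In CP70 it was 0.49 (SE 0.30, adjusted p = 0.143) and in PEO4 -0.07 (SE 0.13, adjusted p = 0.629), neither past the threshold, and both changed sign after median centring, to -0.08 and 0.27. The difference between the PEA and PEO changes was -0.59 (SE 0.25, adjusted p = 0.0371). The overlapping second window (chr9:115983900-115984900) ranged from 1.54 FPKM in PEA2 to 3.35 in PEO1 and did not pass in any pair.

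SLC31A2 had 1 window, over its start in exon 1 (ENSG00000136867, chr9:115912800-115913800). Its levels were 2.32, 2.59 and 1.74 FPKM in A2780, 4.02, 3.29 and 2.72 FPKM in CP70 and 3.43, 3.4 and 2.06 FPKM in PEA1. They were 2.75, 2.08 and 2.04 FPKM in PEA2, 2.63, 2.79 and 2.45 FPKM in PEO1 and 2.62, 3.02 and 2.84 FPKM in PEO4. The libraries of every line overlapped those of the next line in the order, while CP70 and A2780, at its ends, did not overlap, and the highest mean was in CP70 (3.34 ± 0.648, SD, n = 3). No pair passed, with 0.57 (SE 0.27, adjusted p = 0.0649) in CP70, -0.33 (SE 0.23, adjusted p = 0.195) in PEA2 and 0.10 (SE 0.19, adjusted p = 0.638) in PEO4. After median centring the CP70 change was -0.0044, and those of PEA2 (-0.70) and PEO4 (0.45) passed. Without PEA1 replicate 3 the PEA2 change was -0.57 with an adjusted p of 0.0144.

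SLC22A2 (ENSG00000112499), whose protein imports cisplatin in the kidney, had 6 distal windows. The 3 adjoining windows in intron 9, from chr6:160658100-160659100 to chr6:160659900-160660900, were high in PEO1 alone. The first stood at 4.25, 2.97 and 3.46 FPKM in PEO1, against 0.407, 0.528 and 0.399 FPKM in PEO4 and 0.758, 0.299 and 0.377 FPKM in CP70. In the third (chr6:160659900-160660900) PEO1 stood at 3.61 ± 0.249 FPKM (SD, n = 3), and the 5 other lines had means of 0.201 to 0.586. No PEO1 library overlapped a library of another line in these windows. No other line had a library above 2 FPKM in them, so they are listed in the table through PEO1 alone. The direction and p-values of the PEO4 changes are therefore not independent of that listing. The log2 fold changes of PEO4 were -2.74 (SE 0.27, adjusted p = 3.59e-11), -2.73 (SE 0.33, adjusted p = 4.28e-09) and -2.76 (SE 0.29, adjusted p = 1.81e-10), with the median of the 5 Mb bin at -0.37.

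The 3 other windows of SLC22A2 lay in intron 2. The highest of them, chr6:160675200-160676200, ranged, in FPKM, from 7.24 ± 1.52 in PEO1 through 5.6 ± 0.24 in PEO4, 3.1 ± 0.769 in PEA2, 1.64 ± 0.0985 in PEA1, 0.193 ± 0.077 in A2780 to 0.191 ± 0.123 in CP70 (SD, n = 3 each). The libraries of the 4 serous lines did not overlap those of A2780 or CP70. It rose in PEA2, with 0.85 (SE 0.23, adjusted p = 5.88e-04), and fell in PEO4 (-0.35, SE 0.14, adjusted p = 0.0319). The fall in PEO4 was no longer past the threshold after median centring (-0.0026), became 0.02 relative to the bin, and lost its call without PEO1 replicate 2 or without any 1 of the PEO4 replicates (adjusted p from 0.0505 to 0.292). The adjoining window (chr6:160676100-160677100) had the same order of PEA2 over PEA1 over CP70 and A2780 without overlap, rose in PEA2 (1.09, SE 0.28, adjusted p = 2.03e-04) and did not pass in PEO4 (0.15, adjusted p = 0.484). The window nearest the start (chr6:160677000-160678000) stood at 2.82 ± 0.456 FPKM in PEO1 and 1.23 ± 0.498 in PEO4, without overlap, with a log2 fold change of -1.20 (SE 0.25, adjusted p = 8.35e-05). Only PEO1 had libraries above 2 FPKM in it, so the direction and p-value of this fall are not independent of the listing.

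SLC22A3 (ENSG00000146477), a broadly expressed importer of organic cations, had its start window at chr6:160768800-160769800. Its levels were 0.401, 0.698 and 0.397 FPKM in A2780, 1.36, 1.56 and 1.26 FPKM in CP70 and 1.47, 2.46 and 1.25 FPKM in PEA1. They were 1.7, 1.1 and 1.2 FPKM in PEA2, 2.33, 4.19 and 3.79 FPKM in PEO1 and 2.62, 2.64 and 2.04 FPKM in PEO4. A2780 was the lowest line, apart from all others. The window fell in PEO4, with a log2 fold change of -0.45 (SE 0.20, adjusted p = 0.0477), and the call was lost after median centring (-0.10), relative to the bin (-0.08), and without PEO1 replicate 2 or 3 or any 1 of the PEO4 replicates (adjusted p from 0.0558 to 0.258). Its highest distal window, in intron 1 at +38.6 kb (chr6:160807500-160808500), rose in PEA2 from 1.02 ± 0.111 to 2.65 ± 0.816 FPKM, a log2 fold change of 1.25 (SE 0.24, adjusted p = 9.22e-07). In PEO4 it did not pass (-0.24, adjusted p = 0.258, and 0.10 after median centring), and the PEA and PEO changes differed by 1.50 (SE 0.31, adjusted p = 3.99e-05). The windows at chr6:160769700-160770700 and chr6:160812000-160813000, also in intron 1, passed in no pair in which they were tested. At the second of them PEA2, PEO1 and PEO4 had means of 1.21 to 1.55 FPKM without overlap with A2780, CP70 and PEA1, at 0.194 to 0.351.

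**Figure D2:**
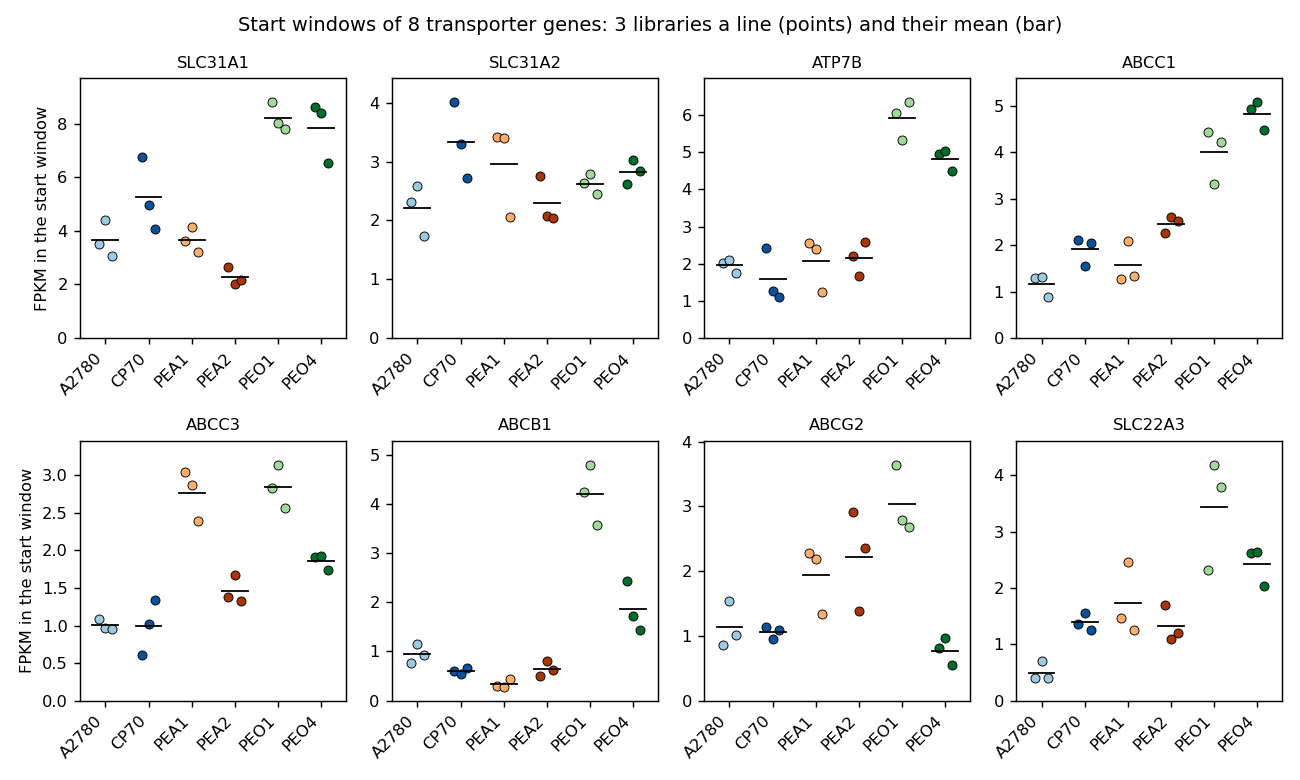
FPKM in the start window of the 8 transporter genes that had one in the table, by line, with 1 point per library and a bar at the mean of 3. ABCB1 stood at 4.20 in PEO1 and at 0.333 to 1.87 in the other lines, and SLC31A2 overlapped between neighbouring lines throughout.

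ATP7B, the copper pump linked to platinum export, had 2 adjoining promoter windows, both also over the promoter of the divergent gene ALG11. The start window (ENSG00000123191, chr13:52585200-52586200) stood at 2.01, 2.1 and 1.75 FPKM in A2780, 2.42, 1.26 and 1.09 FPKM in CP70 and 2.56, 2.4 and 1.25 FPKM in PEA1. It stood at 2.2, 1.68 and 2.57 FPKM in PEA2, 6.07, 5.32 and 6.35 FPKM in PEO1 and 4.94, 5.04 and 4.48 FPKM in PEO4. PEO1 and PEO4 were each apart from all lower lines, and the 4 others overlapped. No pair passed: CP70 changed by -0.36 (SE 0.25, adjusted p = 0.208), PEA2 by 0.09 (SE 0.24, adjusted p = 0.739) and PEO4 by -0.29 (SE 0.14, adjusted p = 0.0748). The value of CP70 was -0.94 after median centring, where it passed (adjusted p = 0.00123), and it passed without CP70 replicate 1 (-0.69, adjusted p = 0.0117), whose level was the highest of that line. Median centring turned the signs of PEA2 (-0.28) and PEO4 (0.06). Without PEO1 replicate 2 the PEO4 change passed (-0.36, adjusted p = 0.043). The second window (chr13:52586100-52587100) was more open, at 9.89 ± 1.35 FPKM in PEO4, 8.78 ± 1.34 in PEO1 and 2.19 to 3.13 in the others. The libraries of the PEO lines overlapped each other and no others, and no pair passed, with -0.57 (adjusted p = 0.0615) in CP70, -0.24 (0.36) in PEA2 and 0.17 (0.238) in PEO4.

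ABCC1 (ENSG00000103222), the multidrug pump MRP1, had 2 promoter and 9 distal windows over its span on chromosome 16. The start window (chr16:16043400-16044400, exon 1 and intron 1) stood at 1.29, 1.31 and 0.876 FPKM in A2780, 2.12, 1.56 and 2.05 FPKM in CP70 and 1.28, 2.09 and 1.34 FPKM in PEA1. It stood at 2.25, 2.6 and 2.53 FPKM in PEA2, 4.45, 3.32 and 4.24 FPKM in PEO1 and 4.94, 5.09 and 4.48 FPKM in PEO4. In each pair the resistant line had the higher mean, the libraries overlapped in none of the 3 pairs, and PEO4 was the highest line. The log2 fold change was 0.68 (SE 0.25, adjusted p = 0.0192) in CP70, 0.65 (SE 0.24, adjusted p = 0.0115) in PEA2 and 0.28 (SE 0.16, adjusted p = 0.118) in PEO4. Relative to the median window these became 0.11, 0.28 and 0.62, of which only that of PEO4 passed, and relative to the bin the PEA2 value was -0.69. The call in CP70 was lost without A2780 replicate 3 (adjusted p = 0.172) or CP70 replicate 3 (0.0558), and that in PEA2 without PEA1 replicate 1 (0.0959) or PEA2 replicate 3 (0.0512). The value over the 3 pairs, 0.54 (SE 0.48), had an unadjusted p of 0.265 by limma.

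The distal windows of ABCC1 differed more. The highest, in intron 5 at +72.4 kb (chr16:16115400-16116400), ranged, in FPKM, from 10.1 ± 1.13 in PEO4 through 8.34 ± 0.526 in PEO1, 3.93 ± 0.388 in PEA2, 2.09 ± 0.771 in PEA1, 0.88 ± 0.452 in CP70 to 0.43 ± 0.129 in A2780 (SD, n = 3 each). It rose in PEA2 (0.94, SE 0.23, adjusted p = 1.03e-04) and in PEO4 (0.27, SE 0.12, adjusted p = 0.0464), and the PEO4 call was lost without PEO1 replicate 1 or 2 or PEO4 replicate 1 or 2 (adjusted p from 0.0619 to 0.236). Relative to the bin the PEA2 value was -0.39. Both AP-1 matches of the stretch printed above for +72.4 kb lie in this window.

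In the same intron at +78.7 kb (chr16:16121700-16122700), PEA2 stood at 2.86, 2.95 and 3.15 FPKM against 0.449, 0.592 and 0.623 in PEA1. PEA2 was the only line above 1 FPKM there, with PEO1 at 1, 1 and 0 reads. The window is listed through PEA2 alone, so the direction of its change is not independent of the listing. The log2 fold change of PEA2 was 2.25 (SE 0.26, adjusted p = 2.83e-17), and 0.91 relative to the bin. In intron 14 at +124.6 kb (chr16:16167600-16168600), the PEO1 libraries held 2, 5 and 2 reads (0.287 ± 0.13 FPKM) and the PEO4 libraries 29, 47 and 37 (1.93 ± 0.294 FPKM). It rose in PEO4 with 2.43 (SE 0.36, adjusted p = 3.07e-07), the only transporter window to rise in PEO4 by the stricter rule. PEA2 rose less there (0.57, SE 0.23, adjusted p = 0.0225), a call lost after median centring (0.20) and without PEA1 replicate 1, PEA2 replicate 1 or PEA2 replicate 3 (adjusted p from 0.0525 to 0.14), and it became -0.77 relative to the bin. The PEA and PEO changes differed there by -1.86 (SE 0.35, adjusted p = 7.41e-06).

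The other distal windows of ABCC1 divided the lines in further ways. In intron 1, the window at +47.2 kb (chr16:16090200-16091200) stood at 0.963 ± 0.443 FPKM in PEA1 and 3.95 ± 0.667 in PEA2, and at 2.49 ± 0.339 in PEO1 and 1.47 ± 0.282 in PEO4. It rose in PEA2 (1.99, SE 0.24, adjusted p = 5.31e-16) and fell in PEO4 (-0.74, SE 0.23, adjusted p = 0.00435). The window at +49.0 kb (chr16:16092000-16093000), the next but one on the grid, rose in both, with 1.82 (SE 0.24, adjusted p = 9.50e-14) in PEA2 and 0.40 (SE 0.18, adjusted p = 0.0429) in PEO4. The PEO4 call was lost without any 1 library other than PEO1 replicate 3 (adjusted p from 0.0542 to 0.111). Downstream of the gene (chr16:16237800-16238800) PEA2 stood at 3.41 ± 0.0965 FPKM and every other line had a mean of 0.285 to 1.18. Its log2 fold change in PEA2 was 1.48, or 0.14 relative to the bin. Only PEA2 had libraries above 2 FPKM there, so the direction of this change is not independent of the listing. Relative to the bin, the PEA2 values at +47.2 and +49.0 kb were 0.66 and 0.48. In intron 8 and exon 9 (chr16:16138800-16139800) the PEO1 libraries ranged from 1.0 to 3.54 FPKM and overlapped those of PEO4, and the fall in PEO4 was -1.32 (SE 0.32, adjusted p = 4.07e-04). Only PEO1 had libraries above 2 FPKM in that window, so the direction and p-value of the fall are not independent of the listing. In PEA2 the log2 fold changes of the 10 windows tested ranged from 0.57 to 2.25, and in PEO4 those of 8 ranged from -1.32 to 2.43.

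ABCC2 (ENSG00000023839), the pump MRP2 of the canalicular and apical membrane, had 3 distal windows. In intron 24 (chr10:101593800-101594800) the levels were 0.513, 0.28 and 0.336 FPKM in PEA1, 2.86, 1.68 and 2.22 FPKM in PEA2, 2.93, 3.23 and 3.23 FPKM in PEO1 and 0.698, 0.768 and 0.598 FPKM in PEO4. PEA2 and PEO1 were high and all libraries of the other 4 lines were below those of both. The window rose in PEA2, with 2.30 (SE 0.29, adjusted p = 1.81e-14), and fell in PEO4, with -2.04 (SE 0.25, adjusted p = 4.40e-09). Upstream of the gene at -3.0 kb (chr10:101538900-101539900) the means had the same order of high lines, 3.53 ± 0.719 FPKM in PEO1, 1.96 ± 0.395 in PEA2 and 1.08 ± 0.278 in PEO4, with 0.292 to 0.455 in the others. It rose in PEA2 (1.88, SE 0.29, adjusted p = 2.99e-10) and fell in PEO4 (-1.63, SE 0.23, adjusted p = 1.00e-07), and the PEA and PEO changes differed by 3.51 (SE 0.36, adjusted p = 1.07e-11). The window in intron 29 did not pass in CP70 or PEO4.

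ABCC3 (ENSG00000108846), the pump MRP3 of the basolateral membrane, had 9 windows in the table, 10.3% of the windows that tile its span, the highest share of the 10 genes. Its first intron held the most accessible window of all 46, at +4.4 kb (chr17:48716100-48717100). The levels were 1.19, 0.541 and 0.76 FPKM in A2780, 0.985, 0.838 and 0.963 FPKM in CP70 and 6.25, 7.26 and 5.08 FPKM in PEA1. They were 3.57, 3.35 and 3.64 FPKM in PEA2, 16.0, 17.1 and 16.3 FPKM in PEO1 and 9.53, 11.6 and 9.96 FPKM in PEO4. The 4 serous lines stood in the order PEO1, PEO4, PEA1 and PEA2 with no overlap between libraries, all above A2780 and CP70, which overlapped. The window fell in PEA2, with a log2 fold change of -0.78 (SE 0.23, adjusted p = 0.00125), or 0.31 relative to its bin, and in PEO4, with -0.67 (SE 0.11, adjusted p = 1.81e-06). The AP-1 stretch printed above for ABCC3 lies in this window, as 1 of its 3 matches.

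The start window of ABCC3 (chr17:48711600-48712600) stood at 1.08, 0.969 and 0.959 FPKM in A2780, 0.606, 1.02 and 1.34 FPKM in CP70 and 3.04, 2.87 and 2.4 FPKM in PEA1. It stood at 1.37, 1.68 and 1.33 FPKM in PEA2, 2.83, 3.14 and 2.56 FPKM in PEO1 and 1.92, 1.92 and 1.74 FPKM in PEO4. PEO1 and PEA1 were high and overlapped, and each was above its resistant partner without overlap. It fell in PEA2, with a log2 fold change of -0.88 (SE 0.24, adjusted p = 4.57e-04), or 0.22 relative to its bin. It fell in PEO4, with -0.58 (SE 0.20, adjusted p = 0.0102), where median centring gave -0.24 without a call. In intron 29 at +52.1 kb (chr17:48763800-48764800) PEA1 stood at 2.47 ± 0.371 FPKM and PEA2 at 0.457 ± 0.161, a log2 fold change of -2.24 (SE 0.27, adjusted p = 3.57e-15), and PEO1 at 4.53 ± 0.935 and PEO4 at 2.17 ± 0.0215, a log2 fold change of -1.01 (SE 0.18, adjusted p = 8.78e-06). The PEA and PEO changes differed by -1.23 (SE 0.33, adjusted p = 0.00115), which became -0.04 relative to the bin. The strongest of the other windows was in intron 8 (chr17:48738600-48739600), where PEO1 stood at 6.56 ± 0.781 FPKM, PEO4 at 3.36 ± 0.155, PEA1 at 3.09 ± 0.592 and PEA2 at 1.18 ± 0.196. The log2 fold change was -1.31 (SE 0.24, adjusted p = 1.44e-07) in PEA2 and -0.94 (SE 0.15, adjusted p = 1.25e-06) in PEO4. Over the 9 windows it ranged from -2.24 to -0.63 in PEA2 and from -1.01 to 0.04 in PEO4, where the windows at +5.3 kb and in intron 30 did not pass. None of the 9 was tested in CP70, where each had a mean of 1 FPKM or less over the pair.

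**Figure D3:**
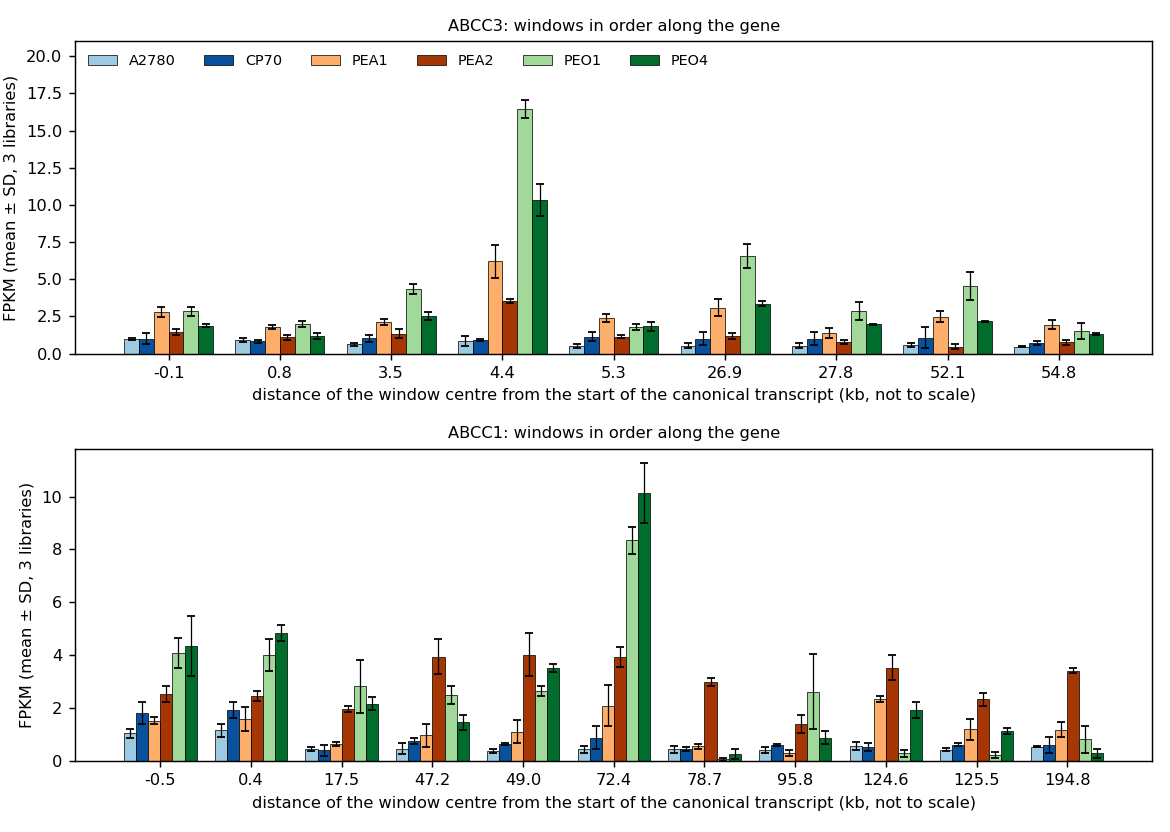
Mean FPKM ± SD over 3 libraries of every window of ABCC3 (upper panel) and ABCC1 (lower panel), by line, in order along the gene with the distance of the window centre from the start in kb. The ABCC3 window at 4.4 kb reached 16.5 in PEO1 and 10.4 in PEO4, and the ABCC1 window at 78.7 kb was above 1 FPKM in PEA2 only.

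The stretches of chromosome around ABCC3 and ABCC1 moved with these genes in the PEA pair. The median log2 fold change of the 5 Mb bin that holds ABCC3 was -1.10 in PEA2 and 0.11 in PEO4. Less that median, 6 of the 9 ABCC3 windows lay above the bin and 3 below in PEA2, with the start window at 0.22, and 9 of 9 lay below it in PEO4, with the start window at -0.69. The bin of ABCC1 stood at 1.34 in PEA2 and at -0.09 in PEO4, and 5 of the 10 ABCC1 windows lay above it and 5 below in PEA2. The part of the wider shift in the changes at the genes was not tested.

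**Figure D4:**
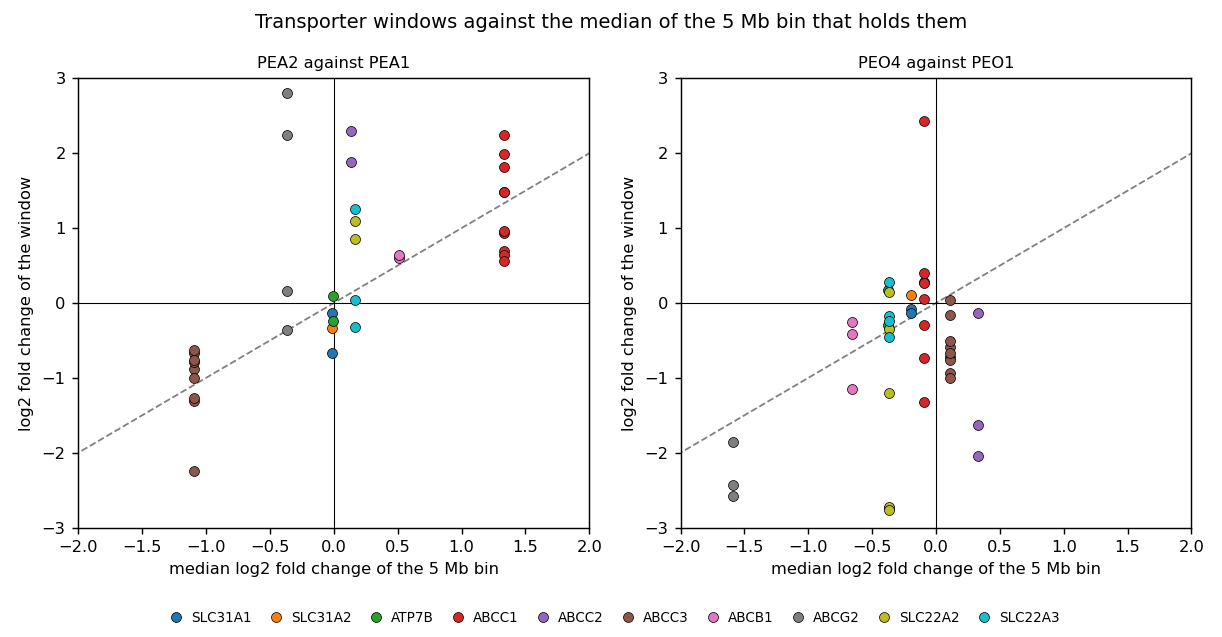
Log2 fold change of each transporter window tested (vertical axis) against the median log2 fold change of the 5 Mb bin that holds it (horizontal axis), for PEA2 against PEA1 and PEO4 against PEO1. Points on the dashed line changed as much as their bin. In the PEA pair the windows of ABCC3 (bin at -1.10) and ABCC1 (bin at 1.34) lie on both sides of the line, and in the PEO pair the 9 ABCC3 windows lie below it.

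ABCB1 (ENSG00000085563), P-glycoprotein, had 1 window of its own in the table, over the start of its canonical transcript (chr7:87229800-87230800). The levels were 0.767, 1.15 and 0.926 FPKM in A2780, 0.606, 0.539 and 0.67 FPKM in CP70 and 0.288, 0.28 and 0.432 FPKM in PEA1. They were 0.495, 0.809 and 0.621 FPKM in PEA2, 4.25, 4.8 and 3.57 FPKM in PEO1 and 2.44, 1.73 and 1.44 FPKM in PEO4. PEO1 was the highest line and PEO4 the second, both apart from the rest, and PEA1 was the lowest with 9 reads in each library. The window fell in PEO4, with a log2 fold change of -1.15 (SE 0.20, adjusted p = 4.03e-06), -0.80 after median centring and -0.49 relative to its bin (-0.66). PEO1 was the only line with at least 2 libraries above 2 FPKM there. The direction and p-value of this fall are therefore not independent of the listing. In the A2780 and PEA pairs the window was under the mean of 1 FPKM and was not tested.

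The 2 further windows inside the ABCB1 span lay over the promoter of RUNDC3B, a gene on the opposite strand, and were more open than the ABCB1 start in every line. The higher of them (chr7:87256800-87257800) ranged, in FPKM, from 10.9 ± 0.325 in PEO1 through 9.17 ± 0.613 in PEO4, 5.05 ± 1.52 in CP70, 4.67 ± 0.507 in PEA2, 3.29 ± 0.566 in A2780 to 3.03 ± 0.128 in PEA1. It rose in PEA2 (0.60, SE 0.23, adjusted p = 0.0142) and did not pass in CP70 (0.57, adjusted p = 0.0866) or PEO4 (-0.25, adjusted p = 0.0572). The lower (chr7:87257700-87258700) stood at 1.34, 2.05 and 1.8 FPKM in A2780 and 3.48, 2.69 and 2.35 FPKM in CP70, at 2.47, 2.71 and 1.92 FPKM in PEA1 and 4.56, 2.66 and 4.17 FPKM in PEA2, and at 6.17, 8.11 and 7.24 FPKM in PEO1 and 5.12, 5.86 and 5.08 FPKM in PEO4. Its libraries overlapped in the PEA pair and in neither of the others. It rose in CP70 (0.68, SE 0.26, adjusted p = 0.0238) and PEA2 (0.64, SE 0.23, adjusted p = 0.00952) and fell in PEO4 (-0.41, SE 0.14, adjusted p = 0.00973, -0.07 after median centring and 0.25 relative to the bin). At these 2 windows ABCB1 and RUNDC3B cannot be told apart.

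ABCG2 (ENSG00000118777), the breast cancer resistance protein, had 1 start window and 4 distal windows. The start window (chr4:89079300-89080300) stood at 0.854, 1.53 and 1.01 FPKM in A2780, 1.14, 0.958 and 1.09 FPKM in CP70 and 2.27, 2.18 and 1.34 FPKM in PEA1. It stood at 2.91, 1.39 and 2.35 FPKM in PEA2, 3.64, 2.79 and 2.67 FPKM in PEO1 and 0.814, 0.96 and 0.548 FPKM in PEO4. Each line overlapped the next in the order, but PEO1 and PEO4, at its ends, did not overlap. It fell in PEO4, with a log2 fold change of -1.86 (SE 0.25, adjusted p = 5.77e-08), while the bin stood at -1.59 and the window differed from the bin by -0.27, without a call. In CP70 it changed by -0.05 (SE 0.28, adjusted p = 0.877) and in PEA2 by 0.16 (SE 0.24, adjusted p = 0.554), neither past the threshold. The sign of the CP70 value turned without A2780 replicate 2 (0.17) or CP70 replicate 2 (0.02). That of PEA2 turned after median centring (-0.21) and without PEA1 replicate 3 (-0.07) or PEA2 replicate 1 (-0.06).

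Adjoining windows in introns 10 and 9 of ABCG2 were open in PEA2 only. At chr4:89027100-89028100 PEA2 stood at 3.08, 2.02 and 3.02 FPKM, and every library of the 5 other lines was lower, with line means of 0.173 to 0.367. The log2 fold change was 2.80 (SE 0.29, adjusted p = 5.94e-21), the largest of any transporter window in the 3 pairs, and 2.25 (SE 0.28, adjusted p = 4.40e-15) in the adjoining window. Only PEA2 had libraries above 2 FPKM in both windows, so the direction and p-values there are not independent of their listing. Upstream of the canonical start at -19.8 kb and inside the annotated gene span (chr4:89099100-89100100), PEO1 stood at 5.0 ± 0.665 FPKM and PEO4 at 0.751 ± 0.105, a log2 fold change of -2.58 (SE 0.22, adjusted p = 8.34e-13). The window in intron 1 at +15.3 kb (chr4:89064000-89065000) fell in PEO4, with a log2 fold change of -2.43 (SE 0.33, adjusted p = 5.46e-08), from 2.24 ± 0.493 to 0.331 ± 0.0791 FPKM. Relative to the bin these 2 changes in PEO4 were -0.99 and -0.84. The window at +15.3 kb was likewise listed through PEO1 alone.

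**Figure D5:**
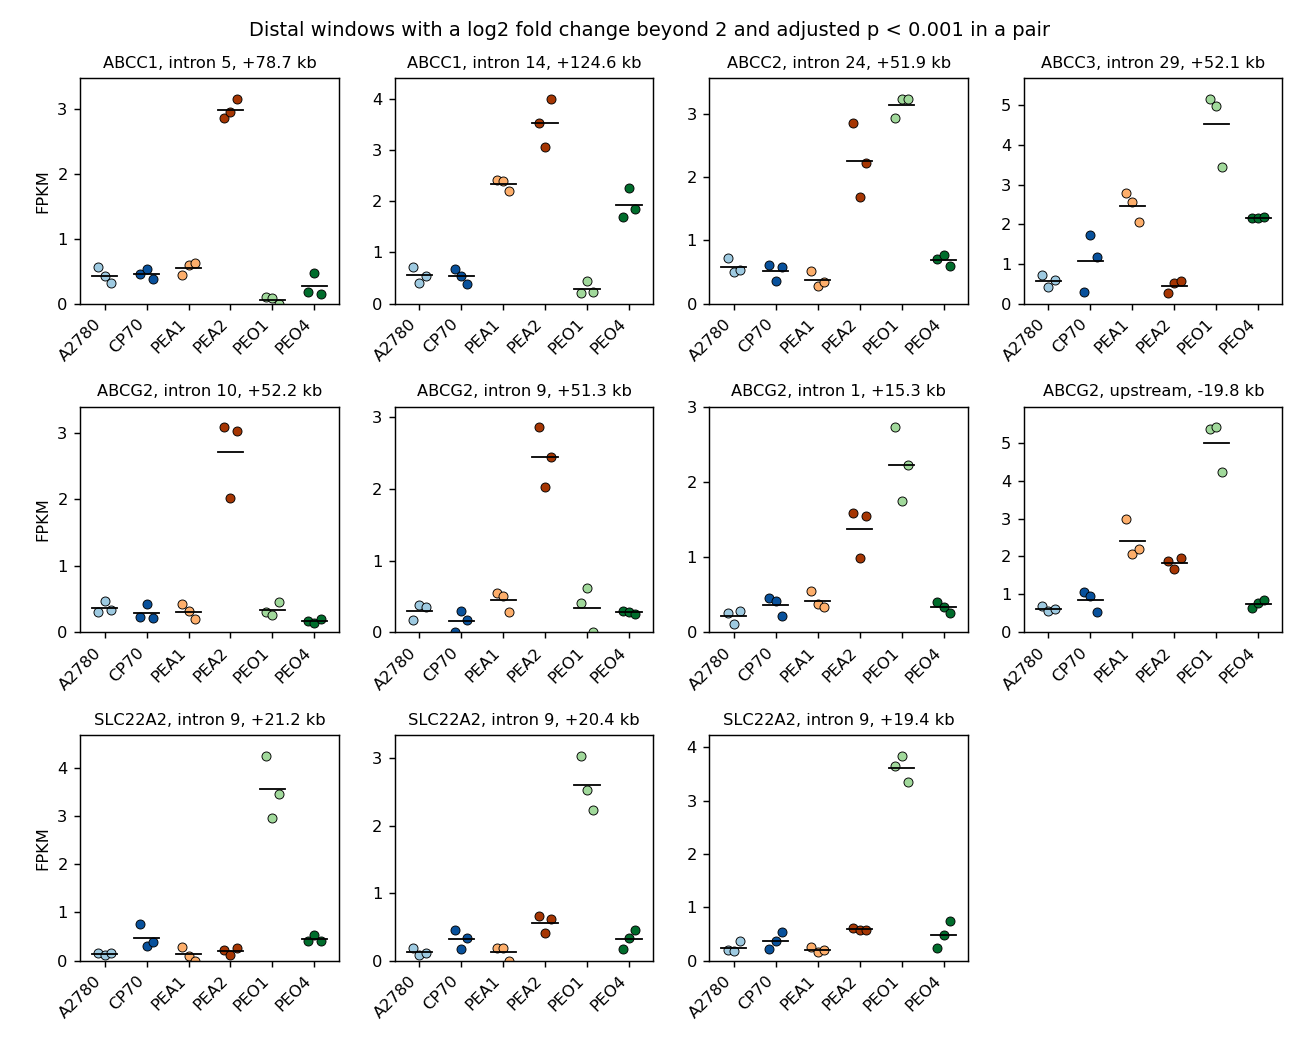
FPKM by line, with 1 point per library and a bar at the mean of 3, in the 11 distal windows with a log2 fold change beyond 2 and an adjusted p under 0.001 in a pair, with the intron and the distance from the start in kb. The ABCC1 window at +78.7 kb and the ABCG2 windows in introns 9 and 10 were high in PEA2, and the 3 SLC22A2 windows in intron 9 were high in PEO1.

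Likeness to other genes was measured by Pearson's r of log2(FPKM + 0.1) between start windows over the 18 libraries, which share depth and background, so that r is high for most genes. The start windows most like that of ABCB1 were those of GABRQ (r = 0.97), KCTD8 (0.96) and VGLL1 (0.95), where the median over 13531 other start windows was 0.65. Those most like ABCG2 were CHGB (0.95), NPFFR2 (0.93) and NAPB (0.90), with a median of 0.11. Those most like ABCC3 were SLC34A2 (0.93), HOXC5 (0.92) and CDKL2 (0.92), with a median of 0.46. SLC31A2 was least like any gene, with RAD54L2 at 0.87 and a median of 0.31. For SLC31A1, ATP7B, ABCC1 and SLC22A3 the most similar genes were CCDC146 (0.98), FPGT (0.97), NCAPH (0.97) and SH2D5 (0.96), with medians of 0.76, 0.78, 0.77 and 0.73.

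A wider list of 24 other genes of copper handling and drug transport was counted over canonical start windows, of which 20 were in the table. In CP70, 8 of 18 tested rose and the other 10 did not pass, beside 46.8% of promoter windows that rose. In PEA2, 4 of 20 rose and 7 fell, beside 20.3% and 32.9%, and in PEO4, 7 of 19 rose and 5 fell, beside 24.8% and 32.3%. The median log2 fold changes were 0.53, -0.14 and -0.05, beside 0.59, -0.17 and -0.06 for all promoter windows tested. Among them LRRC8A, a subunit of the volume-regulated anion channel that carries cisplatin, stood at 4.71 FPKM in PEA1 and 1.46 in PEA2 and at 6.86 in PEO1 and 12.3 in PEO4. It fell in PEA2 by 1.61 (limma adjusted p = 1.77e-11) and rose in PEO4 by 0.84 (3.10e-07). SLC7A11, the cystine importer, fell in both, by 0.83 (0.000864) and 0.71 (0.00012), and COX17, a copper chaperone of mitochondria, rose in PEA2 by 1.01 (3.31e-05). LRRC8A, SLC7A11 and COX17 were picked after their values were seen.

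The labelled cell type was checked at start windows of markers. All 5 epithelial markers (EPCAM, KRT7, KRT8, KRT18 and CDH1) were in the table, at 0.681 to 2.57 FPKM in A2780, CP70, PEA1 and PEA2 and 3.03 to 11.8 in PEO1 and PEO4. By percentile among all windows of a line, CDH1 stood at 53.0 in PEO1, below 60.6 in A2780, 57.7 in CP70 and 69.0 in PEA2. EPCAM, KRT7, KRT8 and KRT18 were higher in both PEO lines than in the other lines by percentile too. They counted 2 higher of 3 tested in CP70, 3 higher and 2 lower of 5 in PEA2, and 3 higher and 1 lower of 5 in PEO4. Of 5 Müllerian and serous markers 4 were in the table, and they did not follow 1 order. WT1 stood at 16.5 and 20.6 FPKM in PEO1 and PEO4 and at 1.10 and 1.49 in A2780 and CP70, and PAX8 at 7.90 and 5.60 and at 0.61 and 0.90. SOX17 was highest in PEA2 at 2.33 FPKM and stood at 0.721 and 0.661 in PEO1 and PEO4, and MECOM stood at 7.12 in PEO1 and at 1.52 in PEO4. In CP70 the 2 tested did not pass, in PEA2 2 of 4 were higher, and in PEO4 1 of 3 was higher and 2 were lower. The start windows of leukocyte (PTPRC, CD3E) and endothelial (PECAM1, VWF) markers and of PDGFRB were not analysed here, and that of the fibroblast marker COL1A2 stood at 0.417 to 2.17 FPKM and did not pass in CP70 or PEO4.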

How the data were processed

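ATAC-seq libraries of 6 cell lines, 3 per line, were used as deposited. According to the study's methods, the authors aligned reads to hg19 with Bowtie2 (version not given in the sources used here), removed duplicates with Picard and dropped mitochondrial and blacklisted reads, counted reads in overlapping windows of about 1 kb and converted the counts to FPKM with edgeR. A shift of reads for the Tn5 offset is not given in the sources used here. All windows have 1 length, so the deposited FPKM values are RPM values times a constant and were handled as such, and 89428 windows with over 2 FPKM in at least 2 libraries are listed. All values were whole multiples of 1 read, so read numbers and library totals (8963079 to 60435027) were recovered for the count test below. The recovered window length was 1001 bp with a step of 900 bp, so neighbouring windows share 101 bp.

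Genes were placed with GENCODE release 44 on GRCh37, and sequences were read from GRCh37. One sequence is not reported here. Each pair was fitted by limma 3.58.1 (R 4.3.3) on log2(FPKM + 0.1), over windows with a mean above 1 FPKM in the pair, with p-values adjusted by Benjamini-Hochberg over all windows tested and a threshold of 0.05. A fold change on this scale understates the change of low windows. The PEA and PEO changes were compared by an interaction, and resistant with sensitive lines by limma on the 6 line means, blocked by pair. The named windows were each gene's start window and highest distal window and those past the study's rule, and further windows are given to account for every gene. Members and lists were chosen with earlier results of these data known. Alternatives were another pseudocount, no filter or a higher one, the study's upper limit on window depth, median centring, quantile normalization, subtraction of the 5 Mb bin median, edgeR 4.0.16 on recovered reads, a replicate block, gene spans extended by 0 or 50 kb, and each library left out. The fits were tested on simulated data. Python 3.11.15, pandas 2.3.3, numpy 2.4.6, pysam 0.24.0 and matplotlib 3.10.9 did the rest.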

Additional observations from a re-analysis of the deposited data

Results flagged for a closer look

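By the interaction in limma over 12 libraries, the log2 fold change differed between the PEA and PEO pairs at 14 of the named windows. Over all transporter windows tested 27 of 42 differed, beside 68.1% of all windows tested. The named windows include those past the study's rule in either pair, so the 14 are not independent of that choice. The value is the change in the PEA pair less that in the PEO pair, and the median over all windows was 0.58. It was 4.3431 at intron 24 of ABCC2 and 3.5079 upstream of ABCC2. It was 1.1983 at intron 2 of SLC22A2, which became 0.40 (adjusted p = 0.114) after median centring, and 1.4977 at intron 1 of SLC22A3. In ABCG2 it was 2.2177 upstream and 2.024 at the start. In ABCC1 it was 0.6682 at intron 5, which became -0.13 (adjusted p = 0.609) after median centring, and -1.8623 at intron 14. It was -1.2313 at intron 29 of ABCC3, which became -0.04 relative to its bin, and -0.5873 at the start of SLC31A1. Another 4 of the 14 windows were at or below a mean of 1 FPKM in the PEA pair, were not tested there and entered the interaction through the PEO lines, so that their difference rests on the PEO1 level. It was 3.9611 and 3.324 at the outer windows in intron 9 of SLC22A2, 3.937 at intron 1 of ABCG2 and 1.9189 at the start of ABCB1. The bin medians of the ABCG2 windows, -0.37 in PEA2 and -1.59 in PEO4, moved in the same direction as the difference, and their part in it was not tested.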

How the results depend on the processing

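In CP70 against A2780, windows higher numbered 3 of 11 tested, 10 of 46 with no filter on low windows and 7 of 17 with spans extended by 50 kb. They numbered 0 of 11 with median centring, quantile normalization or the bin median subtracted. The shares of all windows called under the alternatives of this section are not given here. Windows lower numbered 2 with median centring and 2 with quantile normalization. In PEA2 against PEA1, subtracting the bin median gave 9 higher and 5 lower. In PEO4 against PEO1, windows higher numbered 9 with median centring, 8 with quantile normalization, 7 with the bin median subtracted and 1 with a mean above 5 FPKM, where 3 were lower. With that mean, 3 windows differed between the PEO and PEA pairs, and no transporter window could be tested in CP70 or PEA2. The 18 libraries with the pair as a block gave 8 windows between resistant and sensitive lines. The cause of these changes was not tested, other than that a higher mean leaves fewer windows and more libraries give smaller errors.

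Leaving out 1 library gave 1 to 4 windows higher and 0 to 2 lower in CP70, 15 to 21 higher and 7 to 11 lower in PEA2, 0 to 3 higher and 18 to 21 lower in PEO4, and 23 to 28 for the difference between pairs. It gave -0.2154 to 0.1717 for the ABCG2 start in CP70 and -0.0661 to 0.4538 in PEA2, -0.2178 to 0.2741 for the ATP7B start in PEA2, and -0.1454 to 0.0514 for the SLC31A1 start in PEO4. The replicate numbers did not pair libraries across lines (correlations of deviations from -0.41 to 0.04). With a replicate block the counts were 3 and 0 in CP70, 19 and 10 in PEA2, 3 and 23 in PEO4, and 27 between pairs.

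Of 625 alternative values for the named windows, 543 kept their direction and their side of the threshold, 36 lost the call, 15 gained one and 31 changed sign, among them 6 of the 31 results that had passed. With median centring the values that changed sign were, in CP70, -0.0044 (SLC31A2 start) and -0.0839 (SLC31A1 start), in PEA2, -0.2065 (ABCG2 start) and -0.2756 (ATP7B start), and in PEO4, 0.1003 (SLC22A3 intron 1), 0.2695 (SLC31A1 start) and 0.056 (ATP7B start). With quantile normalization they were -0.0258, -0.1116, -0.2144, -0.26, 0.0985 and 0.1125 for the first 6 of these. With the bin median subtracted they were -0.041 (SLC31A1 start, CP70), 0.0038 (ABCG2 upstream, PEA2), -0.6892, -0.3939 and -0.7689 (ABCC1 start, intron 5 and intron 14, PEA2), 0.2191 and 0.3135 (ABCC3 start and intron 1, PEA2), and, in PEO4, 0.023 (SLC22A2 intron 2), 0.1259 (SLC22A3 intron 1), 0.1218 (SLC31A1 start) and 0.0913 (ATP7B start). In CP70 against A2780, 35 of 46 windows were at or below a mean of 1 FPKM, in libraries with 8.38% to 15.6% of reads in windows. Depth was lowest in PEO1, where 3 reads are 0.262 to 0.334 FPKM.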
